A study of Homo sapiens with 31 samples.

Results

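The cytosolic ribosomal protein genes were taken from the FPKM (fragments mapped per kilobase of exon, scaled to the mapped total of each library) table by symbol: RPL or RPS followed by a number, with or without a closing A, X or L, together with RPLP0, RPLP1, RPLP2 and RPSA. The rule selected 80 of 19221 genes, 49 of the large (60S) subunit and 31 of the small (40S) subunit. Its pattern admits the tissue-restricted paralogs RPL3L, RPL10L and RPL39L, but not RPL22L1, RPL26L1, RPL36AL, RPL7L1 or RPS27L, which are described at the end with the other ribosome genes. RNA-sequencing libraries of human lines that the paper used as ovarian cancer lines fell into 4 groups. The paper grants that the origin of C13* makes its use open to objection. It adds that A2780 had been reported as an unlikely line of high-grade serous ovarian cancer. C13* shCON (n = 7) were the control line of the knockdown in C13*, a homologous recombination-proficient line, which the treatment field gives as the state before it, and C13* shCEBPB (n = 8) were C13* cells in which C/EBPβ, the transcription factor encoded by CEBPB, had been knocked down with shRNA lentivirus. A2780 (n = 8) was the untreated parent line, and A2780 OlaR (n = 8) was 1 stable strain derived from it by growth in rising doses of olaparib, an inhibitor of poly(ADP-ribose) polymerase, until its IC50 was at least 30 times that of the parent. The methods call the replicates of each group biological, without saying whether they were separate cultures, so the tests measure the spread between these libraries. Groups are called by their labels throughout, so that C13* shCEBPB or A2780 OlaR stands for the libraries so labelled. Likewise, knockdown, control, resistance and parent name the labelled groups and comparisons.

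Each cytosolic ribosome pairs a small subunit, which holds the mRNA and decodes it, with a large subunit, which joins the amino acids and passes the growing protein out through an exit tunnel. Nearly every ribosomal protein is present in a single copy per ribosome and is encoded by one expressed gene, so cells make these mRNAs in near-equal and very large amounts. Most of the mRNAs begin with a C followed by a run of pyrimidines (C or T), the 5′ terminal oligopyrimidine (TOP) motif, through which mTOR and LARP1 set their translation together. Their genes also left many processed pseudogene copies across the genome, onto which short reads can be misplaced.

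The groups did not separate along the labelled lines. C13* shCON and A2780 OlaR, which the labels place in different lines, had almost the same profile: over all 19221 genes the group means of log2(FPKM + 1) had Pearson r = 0.996, and 73 genes differed by 1 or more, against 3634 between C13* shCON and C13* shCEBPB and 4545 between A2780 and A2780 OlaR. Summed FPKM of 6 epithelial markers ranged from 3680 to 4190 in C13* shCON and from 4150 to 5033 in A2780 OlaR, with all 6 at a mean FPKM of at least 1 in both. The same sum was 1262 to 1513 in C13* shCEBPB, with 2 of 6 at that level, and 85.1 to 93.3 in A2780, with 3 of 6. Those 2 were higher in C13* shCEBPB than in C13* shCON: KRT8 at 747 to 992 against 427 to 491, and KRT18 at 514 to 586 against 303 to 354. EPCAM, KRT19, KRT5 and CDH1 were at or below 0.9002 in every C13* shCEBPB library. The 5 fibroblast markers summed to 823 to 865 in A2780 (5 of 5), 342 to 376 in C13* shCEBPB (2 of 5), 11.6 to 13.7 in C13* shCON (2 of 5) and 3.80 to 5.23 in A2780 OlaR (1 of 5). VIM made up most of the first 2 of these sums, at 784.5 to 827 in A2780 and 327.5 to 360 in C13* shCEBPB. Of 5 ovarian markers, MSLN and PAX8 reached a mean of 1 in C13* shCON and A2780 OlaR, MSLN and SOX17 in C13* shCEBPB and MSLN alone in A2780, with PAX8 at 0.413 to 0.672 in C13* shCEBPB and 0.306 to 0.673 in A2780. Of 4 immune markers PTPRC alone was present, at 75.7 to 103 in A2780 and at or below 0.0144 elsewhere. The 3 endothelial markers stayed at or below a summed 2.39. CEBPB itself was 85.8 ± 9.93 in C13* shCON, 47.1 ± 9.05 in C13* shCEBPB, 99.7 ± 7.63 in A2780 and 112 ± 11.6 in A2780 OlaR (mean FPKM ± SD). One C13* shCON library (replicate 1) carries A2780 in its cell line field. The table's columns are tied to the titles only through letter codes in the sample descriptions (C for A2780 OlaR, O for A2780, CS for C13* shCON and R for C13* shCEBPB). Whether libraries or columns were exchanged between groups was not tested, and an exchange would change which cells every value below belongs to. The part of these differences between cells in the results below was not tested, and in bulk RNA a change in the mixture of cells and a change within each cell cannot be told apart.

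Ribosomal protein genes took 15.1% to 20.6% of all FPKM in a library. In C13* shCON their share was 19.5% ± 0.33 (SD, n = 7; 19.0% to 20.04%). Their share was 17.1% ± 0.445 (n = 8; 16.5% to 17.9%) in C13* shCEBPB, 15.5% ± 0.315 (n = 8; 15.1% to 16.03%) in A2780 and 19.7% ± 0.489 (n = 8; 19.2% to 20.6%) in A2780 OlaR. The C13* shCEBPB libraries lay below every C13* shCON library, and the A2780 libraries below every A2780 OlaR library, while C13* shCON and A2780 OlaR overlapped. The 2 subunits gave different ratios: summed FPKM of the large subunit over that of the small subunit was 1.496 ± 0.0338, 1.51 ± 0.0441 and 1.49 ± 0.0443 in C13* shCON, C13* shCEBPB and A2780 OlaR, and 1.27 ± 0.0295 in A2780. An FPKM share is relative to the other genes, and leaving the 100 highest of those out of the total gave 23.2%, 19.8%, 18.0% and 23.6% in the order C13* shCON, C13* shCEBPB, A2780 and A2780 OlaR. A correction for GC content and gene length brought the C13* groups closer, to 18.9% in C13* shCON and 18.0% in C13* shCEBPB.

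Of the 80 members 73 had a mean of at least 100 FPKM in every group, and the median member stood at 1036 FPKM in C13* shCON, 910 in C13* shCEBPB, 788 in A2780 and 1051 in A2780 OlaR. Between 58 and 60 of the 100 most abundant genes in each group were members. RPS2, a small-subunit protein at the mRNA entry site, was the highest member throughout, at 2840 ± 284, 2855 ± 355, 2687 ± 184 and 3240 ± 407 FPKM in the same order of groups. The lower end held RPL10L, listed at 0 in every library, RPL3L, at or below 0.523 FPKM in every library, and RPS10, RPL36A and RPL17, at group means of 1.19 to 17.8 FPKM. RPS10, RPL36A and RPL17 each share exonic bases on the same strand (730, 333 and 611 bp in GENCODE 44) with a read-through gene that joins them to a neighbour (RPS10-NUDT3, RPL36A-HNRNPH2 and RPL17-C18orf32), and all 3 read-through genes are listed at 0 in all 31 libraries.

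Of the 80 members 63 had a promoter entry in RefSeq (GRCh38.p14), which gives 250 bases before and 50 after the outermost annotated start of a gene. A run of 6 or more consecutive C or T bases touching the 20 bases around the start was present in 53 of them (84.1%), against 30.7% of 27305 promoters, and a run of 8 or more in 77.8% against 15%. The start base itself was C in 73% of the members and in 15% of all promoters. Among short motifs searched over the 300 bases, CTTTCC on the gene strand was in 39.7% against 14%, and CCGGAAG, the core bound by ETS factors such as GABPA, on either strand was in 33.3% against 10.7%. AAGATGG, the core of the YY1 motif, on either strand was in 12.7% against 6.06%, GGGCGG, the GC box, in 55.6% against 44.6%, and CACGTG, the E-box of MYC, in 4.76% against 7.43%. TTGCNNAA, a short form of the site of C/EBP factors, was in 12.7% of member promoters and 10.6% of all. The windows below hold 15 bases before and 15 from the annotated start for some of the members with the largest changes in either comparison. RPL17, RPL28, RPL27 and RPL9 are among those not shown, with longest runs of 16, 13, 2 and 10 bases. The start is the 16th base. Capitals mark the longest run of C or T touching the 20 bases around it, or the first of equally long runs.
RPS29, chr14:49598696-49598725, minus strand: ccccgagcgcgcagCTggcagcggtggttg
RPS6, chr9:19380222-19380251, minus strand: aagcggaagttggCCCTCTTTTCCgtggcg
RPL18, chr19:48619164-48619193, minus strand: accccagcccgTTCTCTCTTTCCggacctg
RPL10, chrX:154398050-154398079, plus strand: TTTTTCCactctcagaaatatacgtctgtc
RPS26, chr12:56041903-56041932, plus strand: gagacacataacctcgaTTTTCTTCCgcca
RPL39, chrX:119791616-119791645, minus strand: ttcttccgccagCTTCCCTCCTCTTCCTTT
RPL7A, chr9:133348203-133348232, plus strand: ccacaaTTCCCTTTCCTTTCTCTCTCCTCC
RPS3, chr11:75399503-75399532, plus strand: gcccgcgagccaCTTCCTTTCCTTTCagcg
RPL13, chr16:89560642-89560671, plus strand: ggCCCTgctatcatcccagagtgcattgcg
Long pyrimidine runs covered the start base of members that fell in C13* shCEBPB (RPS6, RPL18), that rose there (RPL39) and that rose in A2780 OlaR (RPL7A, RPS3). The run of RPS26 began 2 bases after the start base, and that of RPL10 began 22 bases before it and ended upstream of it. For RPS29 and RPL13 the outermost start carried only short runs of 2 and 4 bases, and that start need not be the one used in these cells.

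As labelled, the comparison of C13* shCEBPB with C13* shCON asks which genes change when C/EBPβ is depleted. These groups also differed in the cell markers given above, and the part of the depletion in any change was not tested. In C13* shCEBPB, members that were lower outnumbered those that were higher, though the share that was lower was near that of all genes. RPS29 and RPS6 fell to 33.2% and 43.5% of the control, and RPL10 and RPS26 rose to 217% and 192%. By limma on log2(FPKM + 1), with Benjamini-Hochberg adjustment over 12006 genes and an adjusted p under 0.05, 54 of 78 tested members were DEGs (differentially expressed genes), 40 lower (51.3%) and 14 higher (17.9%). Among all genes tested 84.7% were called, 45.7% lower and 38.9% higher, against 69.2%, 51.3% and 17.9% of the members. The median log2 fold change was -0.18 over the members and -0.07 over all genes. The split between lower and higher members depended on scaling: it was 33 and 23 after a correction for GC content and gene length, and 31 and 27 after quantile normalization. The shares of all genes given above belong to the uncorrected fit, and those under these scalings are not given. For 37 members no library of one group fell within the range of the other, as for 66.0% of all genes tested. Only 3 members passed with a log2 fold change of at least 1 in size, against 29.5% of all genes.

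RPS29, a small zinc-binding protein of the head of the 40S subunit, fell furthest. The gene shares 404 exonic bp with LRR1 on the opposite strand and 403 on the same strand with other annotation, and the use of strand in counting is not known. Its FPKM was 395, 421 and 469 (lowest, median and highest library) in C13* shCON and 113, 137 and 177 in C13* shCEBPB, a log2 fold change of -1.59 ± 0.084 (SE), or 33.2% of the control, with limma adjusted p = 3.51e-12. Every knockdown library lay below the lowest control library. RPS6, the 40S protein that is phosphorylated by S6 kinases downstream of mTOR, read 1988, 2048 and 2264 against 826, 910 and 1026 FPKM, a log2 fold change of -1.201 ± 0.0465 with adjusted p = 3.39e-14 by limma. Again no library of the 2 groups overlapped. RPL18, RPL28 and RPL17, all of the large subunit, fell by 0.92, 0.89 and 0.81 on the log2 scale to 53.2%, 54.1% and 54.6% of the control. RPL18 went from 883, 979 and 1055 FPKM to 396, 537 and 603, and RPL28 from 270.0, 300.4 and 323 to 132, 169 and 179. RPL17 is at the low level of 15.1 to 19.1 FPKM in the control, with the shared exon bases given above.

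RPL10, which sits next to the peptidyl transferase centre and completes the maturation of the 60S subunit, rose most. It read 203, 235 and 238 FPKM in C13* shCON and 453, 502 and 555 in C13* shCEBPB, a log2 fold change of 1.12 ± 0.050 with limma adjusted p = 3.09e-13 and no overlap. RPL10 shares 1651 exonic bp with DNASE1L1 on the opposite strand, and whether the counting used strand is not given in the sources used here. RPS26, a 40S protein at the mRNA exit channel that is mutated in Diamond-Blackfan anaemia, rose from 302, 329 and 343 to 546, 605 and 761 FPKM, or by 0.93 ± 0.0702 on the log2 scale (limma adjusted p = 6.87e-10). For both genes every knockdown library lay above the highest control library. RPL36A rose 0.87 ± 0.0843, but from 3.75 to 5.65 FPKM in the control libraries to 7.5 to 10.5 after knockdown. RPL39, a very small protein that lines the exit tunnel, rose 0.58 ± 0.126 from 465, 559 and 692 to 636, 939 and 1038 FPKM with overlapping libraries. Its value was 0.14 in libraries numbered 1 to 3 alone, where it did not pass the test. RPS23, a 40S protein at the decoding site, rose 0.42 ± 0.0557, from 154, 172 and 183 to 192, 232 and 243 FPKM.

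As labelled, A2780 OlaR was compared with A2780 to find genes that differ once resistance to olaparib is established. These groups too differed in the cell markers given above, and the part of resistance in any difference was not tested. Here ribosomal protein genes were mostly higher in A2780 OlaR. RPL12, RPL27, RPL13, RPL7A and RPL17 of the large subunit stood at 251% to 343% of the A2780 level. Of 78 tested members 65 were DEGs by limma over 12458 genes, 51 higher (65.4%) and 14 lower (17.9%), where 89.8% of all genes were called, 40.1% higher and 49.7% lower. The members' median log2 fold change was 0.34 and that of all genes -0.12. Quantile normalization, which forces the same distribution on every library, moved the split to 33 higher and 32 lower and the median to -0.01, whereas the other scalings left 46 to 53 higher and 9 to 16 lower. The shares of all genes called under these scalings are not given. Among DEGs, 15 members rose and RPS26 fell by 1 or more on the log2 scale, a size that 35.7% of all genes tested passed in either direction. No library of one group fell within the range of the other for 48 members and for 74.1% of all genes. In the large subunit 34 of 47 were higher and 5 lower (median 0.46), and in the small subunit 17 of 31 were higher and 9 lower (median 0.26). The difference between subunits was not tested.

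RPL7A, a large-subunit protein whose gene hosts several small nucleolar RNAs, showed the largest difference. It read 738, 787 and 816 FPKM in A2780 and 2511, 2654 and 2803 in A2780 OlaR, which gave a log2 fold change of 1.76 ± 0.0315 (limma adjusted p = 1.17e-20). In the C13* pair it stood at 2694 ± 139 and 2591 ± 210 FPKM, so A2780 alone held it near 784. RPS3, a 40S protein at the mRNA entry that also has been described in DNA repair, rose 1.54 ± 0.103 from 287, 356 and 391 to 778, 1115 and 1215 FPKM. RPL13 rose 1.47 ± 0.0415, from 180, 190.1 and 204 to 490.2, 536 and 566 FPKM, and RPL27 1.38 ± 0.0613, from 791, 846 and 909 to 1889, 2292 and 2588. No library of either group overlapped for RPL7A, RPS3, RPL13 or RPL27. RPL17 rose 1.61 ± 0.0594, from a mean of 5.18 to 17.8 FPKM. RPL12, of the stalk base, RPL35, RPS15, RPS14, RPL24, RPL23A, RPS24 and RPL23 also rose by between 1.08 and 1.34 on the log2 scale.

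RPS26 was the member that fell most in A2780 OlaR, from 577, 678 and 778 FPKM to 282, 299 and 343 without overlap, a log2 fold change of -1.13 ± 0.0573 with limma adjusted p = 2.99e-13. RPL9, at the base of the large-subunit stalk, fell by 0.93 ± 0.0786 from 744, 853 and 979 to 363, 456 and 533 FPKM. RPS27, a zinc-finger protein of the 40S subunit, fell by 0.57 ± 0.10, with overlapping libraries of 1523 to 2334 and 1062 to 1636 FPKM, and by 0.12 in libraries 1 to 3 alone, where it did not pass. RPL10 fell by 0.44 ± 0.026 from 384, 406 and 417 to 286, 295 and 303 FPKM. For RPL7A, RPL17, RPS3, RPL13, RPL27, RPS26, RPL9 and RPL10 the exact permutation test of the library values gave p = 0.000155, two-sided, the smallest that groups of 8 allow. Any gene whose groups do not overlap gets this value, and the groups did not overlap for 74.1% of all genes tested. Most of these members were named for their large changes, so the value adds nothing to the lack of overlap.

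**Figure D1:**
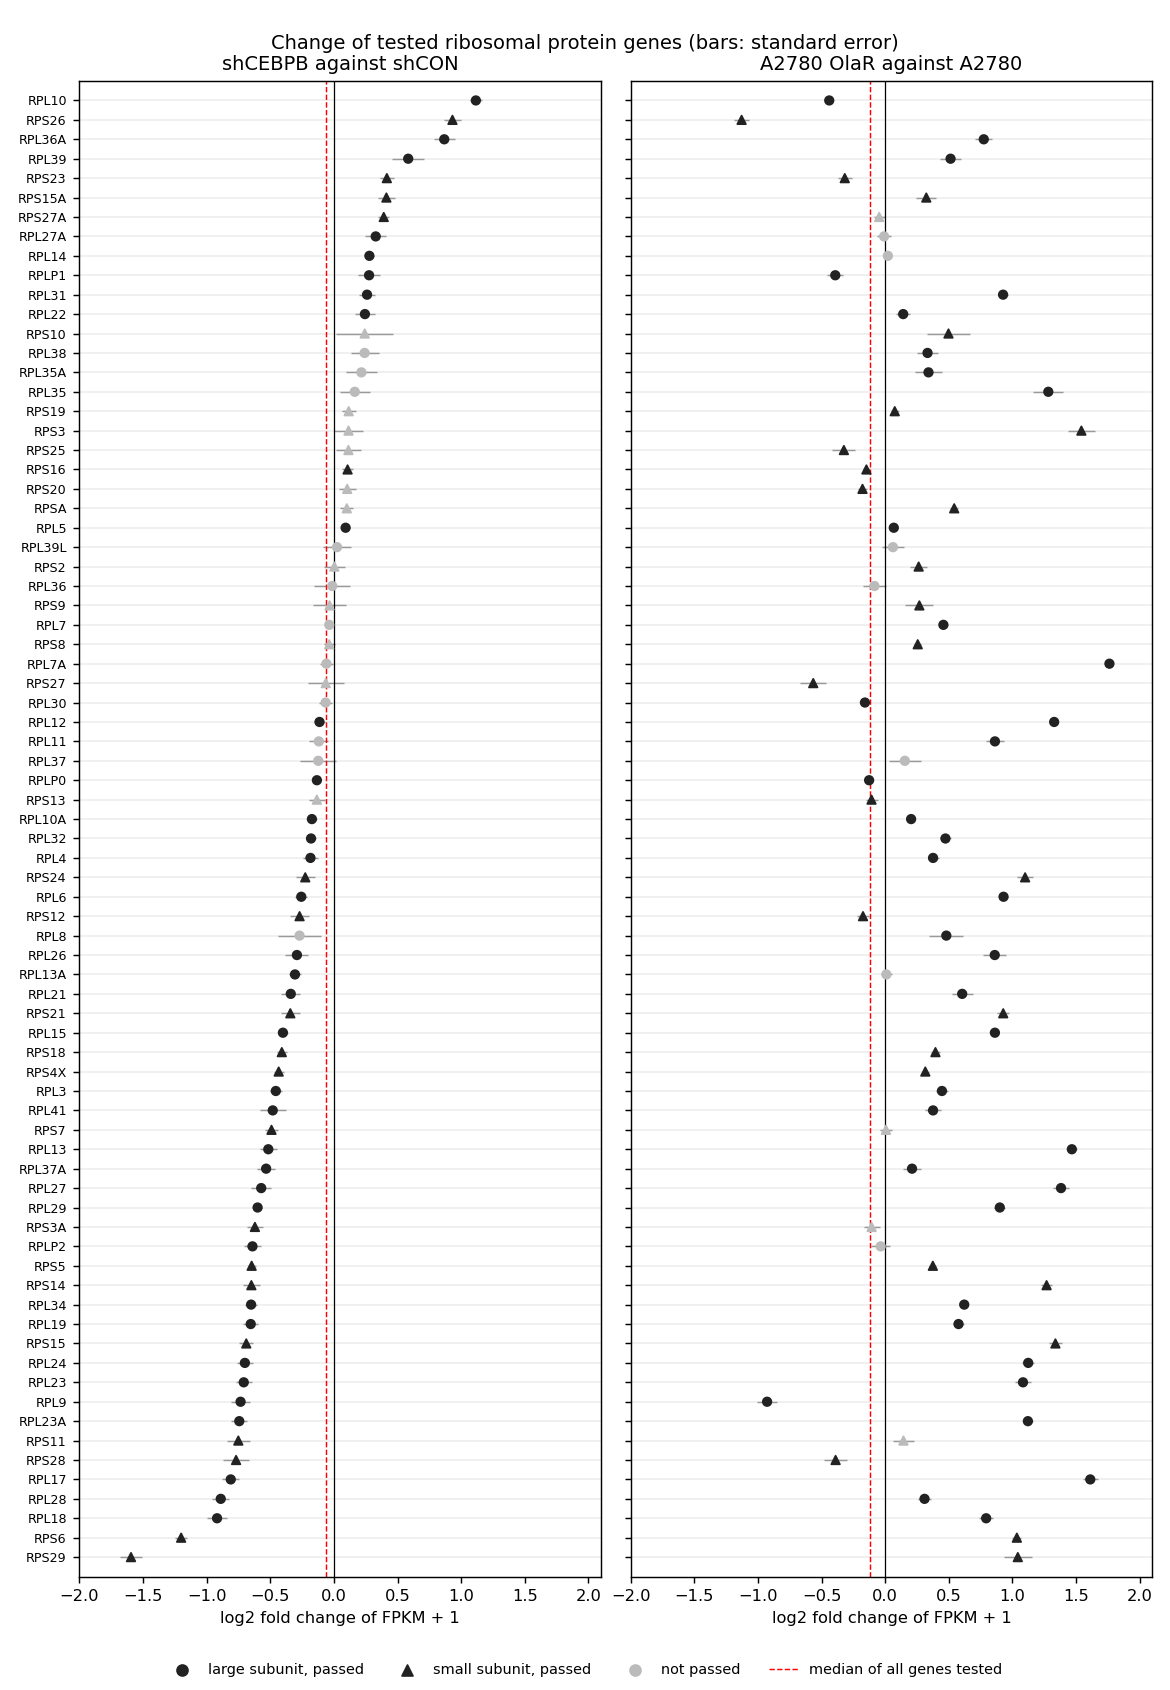
Log2 fold change of FPKM + 1 (x axis) with its standard error for 76 of the 78 tested members, ordered by the knockdown comparison (left panel) and shown in the same order for A2780 OlaR against A2780 (right panel), with circles for the large and triangles for the small subunit, black where the adjusted p was under 0.05. The left values run from -1.59 (RPS29) to 1.12 (RPL10), the right values from -1.13 (RPS26) to 1.76 (RPL7A), and the dashed lines mark the medians of all genes, -0.07 and -0.12.

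The comparisons share no library, but C13* shCON, the reference of one, and A2780 OlaR, the changed group of the other, had almost the same profile (Pearson r = 0.996 over all genes). These like groups enter the comparisons with opposite signs, so opposite fold changes are partly built in. How much of the patterns, correlations and differences below comes from this was not tested. Set side by side, the comparisons sort the members into a few patterns. For 31 of 78 members (39.7%) the value was lower in C13* shCEBPB than in C13* shCON and higher in A2780 OlaR than in A2780, a pattern held by 26.1% of the 11603 genes tested in both. RPS6, RPS29, RPL18, RPL13, RPL17, RPL24, RPS15 and RPL23A were among them. The opposite pattern was found for RPL10, RPLP1, RPS16, RPS23 and RPS26 (6.41% of members, 23.0% of all genes). RPL5, RPL22, RPL31, RPL36A, RPL39 and RPS15A were higher in both (7.69% of members, 10.6% of all genes), and RPL9, RPLP0, RPS12 and RPS28 lower in both (5.13% and 15.9%). RPL36, RPL37 and RPL39L were among 5 that passed in neither (6.41% and 2.13%). Across the 78 members the fold changes of the comparisons had Pearson r = -0.37 and Spearman rho = -0.35, and across all 11603 genes r = -0.49 and rho = -0.38, described without a test because the genes share libraries. The difference between the 2 fold changes was tested with an interaction term in limma, and it passed for 58 of 78 members (74.4%) and for 89.1% of 12967 genes. The 30 members singled out here, of which 22 passed, include those chosen for their large changes, so their count is a description. It was -2.64 ± 0.149 for RPS29, -2.24 ± 0.0573 for RPS6, 2.06 ± 0.0926 for RPS26 and 1.56 ± 0.0535 for RPL10, while RPL9 (0.19 ± 0.112), RPL36A (0.09 ± 0.108) and RPL39 (0.07 ± 0.155) did not pass.

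Seen as levels, the groups of the members follow the label check. C13* shCON and A2780 OlaR differed by at most 0.36 on the log2 scale for any member, and 77 of 80 lay within 0.25. RPS6 was 2087 ± 99.5 and 2107 ± 95.6 FPKM in those groups, and 908 ± 60.7 and 1028 ± 51.6 in C13* shCEBPB and A2780. Of 75 members of at least 20 FPKM, the lowest of the 4 group means was in A2780 for 39, in C13* shCEBPB for 23, in A2780 OlaR for 7 and in C13* shCON for 6. Several members were low in one of these groups and not in the other. RPL7A, RPL12, RPS3, RPL35 and RPL31 were low in A2780, at 784, 1017, 345, 1098 and 673 FPKM, but at 2591, 2320, 1021, 2684 and 1511 in C13* shCEBPB. RPS28 and RPL9 were instead low in C13* shCEBPB, at 473 and 308 FPKM, and highest in A2780, at 1082 and 847.

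**Figure D2:**
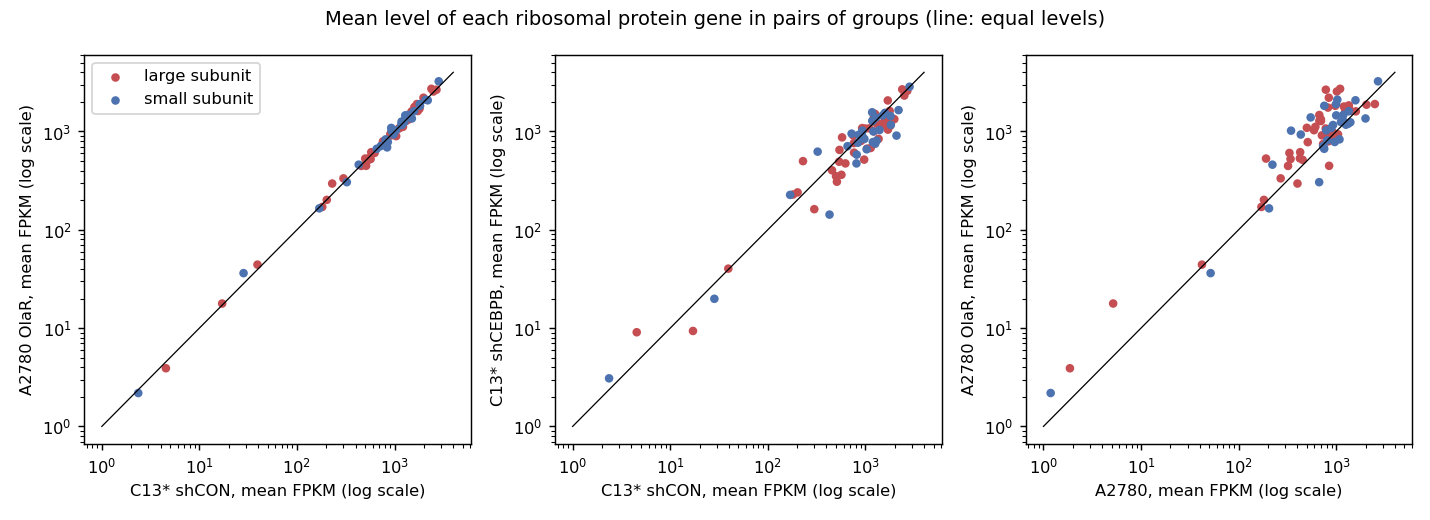
Mean FPKM of each member (log axes) in A2780 OlaR against C13* shCON (left), C13* shCEBPB against C13* shCON (middle) and A2780 OlaR against A2780 (right), red for large-subunit and blue for small-subunit genes, with the line of equal levels. Members at a mean of 1 FPKM or more in every group are drawn. In the left panel none is more than 0.36 on the log2 scale from the line, and in the others 3 and 17 members lie 1 or more from it on that scale, which has no pseudocount.

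**Figure D3:**
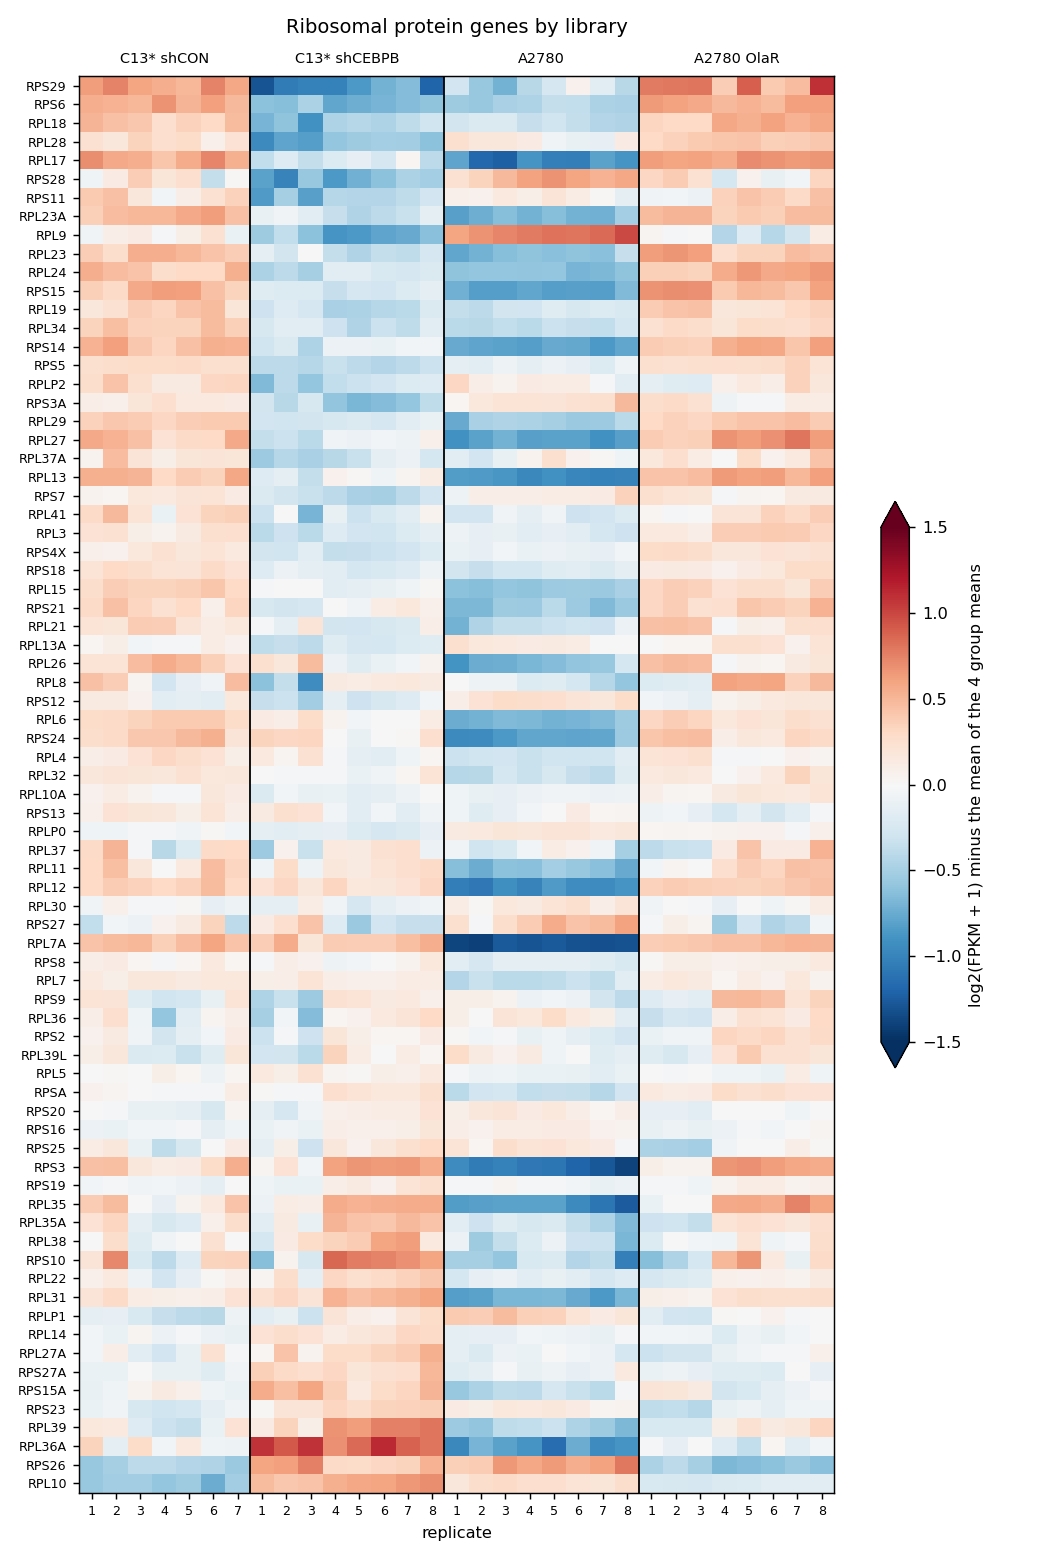
Log2(FPKM + 1) of 76 of the 78 tested members (rows, from the lowest to the highest fold change after knockdown) in each library (columns, numbered by replicate), minus the mean of the 4 group means, red above and blue below, with colours saturating at the ends of the bar. The block of 31 members lower in C13* shCEBPB and higher in A2780 OlaR fills much of the upper part.

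The P-stalk, which recruits and activates the elongation factors, is built of RPLP0 and of RPLP1-RPLP2 dimers, and its members differed. RPLP0 was lower in C13* shCEBPB (1531, 1638 and 1677 FPKM) than in C13* shCON (1740, 1769 and 1849) by 0.13 ± 0.0328 with limma adjusted p = 0.00108, although quantile normalization turned this to 0.15 higher and the correction for GC content and length left -0.01, which did not pass. RPLP0 was likewise lower in A2780 OlaR than in A2780 by 0.13 ± 0.0238, which median ratio scaling left at -0.04, not passing. RPLP1 was higher in C13* shCEBPB by 0.28 ± 0.0857 (1607, 2129 and 2432 against 1505, 1723 and 1905 FPKM), but -0.03 in libraries 1 to 3 alone, and was lower in A2780 OlaR by 0.39 ± 0.0614 (1640, 1986 and 2111 against 2186, 2563 and 2797). RPLP2 fell by 0.64 ± 0.0693 in C13* shCEBPB, from 949, 1041 and 1164 to 547, 679 and 755 FPKM, and gave -0.04 ± 0.0771 in A2780 OlaR, not passing. The difference between the 2 comparisons was 0.67 ± 0.108 for RPLP1 and -0.60 ± 0.108 for RPLP2.

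RPL5 and RPL11, which with 5S RNA form the particle that restrains MDM2 when ribosome assembly fails, differed from each other. RPL5 changed little, by 0.09 ± 0.0381 in C13* shCEBPB (limma adjusted p = 0.0332) and 0.07 ± 0.0311 in A2780 OlaR (adjusted p = 0.0491); the latter became -0.33 after quantile normalization and -0.0025 on a common sum of FPKM, and either pseudocount or filter alternative took its adjusted p to between 0.0512 and 0.0684. The first failed without C13* shCEBPB replicate 1, 3 or 8 or C13* shCON replicate 1, 3 or 6 (0.07 to 0.09), and the latter without A2780 OlaR replicate 1, 2, 3 or 7 or any of A2780 replicates 2 and 4 to 8 (0.05 to 0.07). RPL11 rose 0.86 ± 0.0695 in A2780 OlaR, from 641, 702 and 762 to 1058, 1323 and 1470 FPKM without overlap, and gave -0.12 ± 0.0752 after knockdown, not passing. All 8 proteins at the exit tunnel (RPL4, RPL17, RPL19, RPL23A, RPL26, RPL31, RPL35 and RPL39) were higher in A2780 OlaR, with a median of 0.89, where 40.1% of all genes were higher. In C13* shCEBPB 5 of the 8 were lower (62.5%, against 45.7% of all genes) and RPL31 and RPL39 higher. Of 14 proteins of the 40S head, 7 were higher and 5 lower in A2780 OlaR (50% and 35.7%, against 40.1% and 49.7% of all genes, median 0.03). In C13* shCEBPB 2 were higher and 6 lower (14.3% and 42.9%, against 38.9% and 45.7%, median -0.08). Of 17 genes mutated in Diamond-Blackfan anaemia, 12 were higher and 3 lower in A2780 OlaR (70.6% and 17.6%, median 0.50). In C13* shCEBPB 3 were higher and 8 lower (17.6% and 47.1%, median -0.23), the latter near the share of all genes.

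Single members with a function of their own gave mixed results. RPSA, a 40S protein also known as the laminin receptor precursor, was higher in A2780 OlaR by 0.54 ± 0.0336 (1377, 1475 and 1539 against 943, 996 and 1059 FPKM) and was 0.10 ± 0.0508 after knockdown, not passing. RPS27A, made as a fusion with ubiquitin, rose 0.39 ± 0.045 after knockdown, from 679, 721 and 767 to 877, 931 and 1089 FPKM, and was -0.05 ± 0.0427 in A2780 OlaR, not passing. RPS4X fell by 0.43 ± 0.0393 after knockdown (983, 1026 and 1117 against 1322, 1402 and 1476 FPKM) and was higher in A2780 OlaR by 0.32 ± 0.0266, which became -0.17 after quantile normalization. RPL3, at the peptidyl transferase centre, fell by 0.46 ± 0.0483 and rose by 0.45 ± 0.0496, the latter again -0.05 after quantile normalization. RPL22, an RNA-binding protein of the 60S surface, rose by 0.24 ± 0.0796 and 0.14 ± 0.0561 with overlapping libraries in both comparisons. Within libraries 1 to 3 RPL22 passed in neither, at 0.0053 and -0.055. Its call in A2780 OlaR was also lost without A2780 OlaR replicate 8 (0.12), in 1 fit of all 4 groups (0.14) and on a common sum of FPKM (0.07).

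Of the tissue-restricted paralogs RPL39L, a near-copy of RPL39 known from the testis, was the only one present. It stood at 39.4 ± 5.92, 40.3 ± 7.16, 42.1 ± 4.67 and 44.2 ± 7.09 FPKM in C13* shCON, C13* shCEBPB, A2780 and A2780 OlaR, where RPL39 was 578 ± 95.2, 871 ± 167, 428 ± 35.7 and 616 ± 94.4. The log2 fold changes of RPL39L were 0.02 ± 0.11 and 0.06 ± 0.0896, neither passing, and -0.34 in both comparisons within libraries 1 to 3. RPL3L, the striated-muscle form of RPL3, had a mean of 0.411 FPKM in A2780 and at most 0.0889 in the other groups, and RPL10L, a testis form of RPL10, was listed at 0.

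Libraries of each group were split by number into 1 to 3 and 4 to 8, a cut that no source marks, and no source states what the numbers stand for. These sets of libraries stood apart in C13* shCEBPB and A2780 OlaR, less so in A2780, and not in C13* shCON. Their values did not overlap for 0 of 80 members in C13* shCON, 40 in C13* shCEBPB, 21 in A2780 and 51 in A2780 OlaR, where among 12967 expressed genes the shares were 4.86%, 47.0%, 18.9% and 51.5%. The members that moved most between them were shared: RPL35, RPS3, RPL8 and RPS2 were lower in libraries 1 to 3 by 0.50, 0.55, 0.77 and 0.31 (log2) in C13* shCEBPB and by 0.64, 0.56, 0.71 and 0.36 in A2780 OlaR, and RPS27 was higher by 0.62 and 0.38. Within libraries 1 to 3 the knockdown comparison gave 9 members higher and 43 lower, and within 4 to 8 it gave 27 and 40. The resistance comparison gave 46 higher and 22 lower within 1 to 3, and 54 and 15 within 4 to 8. Shares of all genes called within these subsets are not given, so a shift in these counts cannot be read as particular to the members. Over all 80 members, with those near 0 FPKM included, Pearson r between libraries of one group was 0.976 to 0.9998 on the log2 scale. The members of at least 20 FPKM had a median SD of 0.09 to 0.15 on that scale. Across the 78 tested members the fold changes had Pearson r of -0.08 and 0.04 with GC content and -0.01 and 0.06 with exonic length. With mean level on the log2 scale r was -0.18 and 0.01, and with the number of named pseudogenes 0.07 and 0.20. Correction for GC content and length moved the members' median log2 fold change after knockdown from -0.18 to -0.034. What these properties contribute to the fold changes was not tested. Of the members 77 have pseudogenes named after them in GENCODE 44, with a median of 13 and up to 133 for RPL21, and reads shared with those copies could not be separated in the FPKM values.

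The remaining ribosome genes and near paralogs outside the rule were followed as well. RACK1, the scaffold protein of the 40S head, fell by 1.01 ± 0.0438 in C13* shCEBPB, from 1745 ± 95.0 to 868.1 ± 44.6 FPKM, and was higher in A2780 OlaR (1659 ± 59.2) than in A2780 (956 ± 37.8). FAU, which encodes RPS30 as a ubiquitin-like fusion, fell by 0.39 ± 0.0529 and rose by 0.60 ± 0.0351 in the same order. RPL36AL, which encodes a protein nearly identical to that of RPL36A, was 394 ± 50.3 FPKM in C13* shCON, 132 ± 19.2 in C13* shCEBPB, 92.8 ± 6.30 in A2780 and 348 ± 47.9 in A2780 OlaR, with log2 fold changes of -1.57 ± 0.0977 and 1.89 ± 0.073. RPL22L1, a paralog that can replace RPL22, was 86.2 ± 11.8 FPKM in A2780 and 18.9 ± 2.36 in A2780 OlaR, a fall by 2.13 ± 0.0812 with limma adjusted p = 2.68e-15, and it was 23.6 ± 1.71 and 15.9 ± 1.95 in the C13* pair. RPS27L, a p53-responsive paralog of RPS27, rose 0.75 ± 0.05 after knockdown (31.5 ± 1.42 to 53.8 ± 4.14 FPKM) and 0.41 ± 0.0574 in A2780 OlaR. RPL26L1 fell by 0.14 and 0.17, but did not pass in either comparison within libraries 1 to 3 (-0.07 and -0.031) or under median ratio scaling (-0.09 and -0.08), nor after quantile normalization in A2780 OlaR (-0.15), and turned to 0.033 under GC and length correction in C13* shCEBPB. RPL7L1 gave -0.08 (not passing) and 0.56.

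Genes that make, drive or translate alongside ribosomal proteins were read from lists of related genes, and no difference between a list and the members was tested. Each share below stands against 38.9% higher and 45.7% lower of all genes in C13* shCEBPB, and 40.1% and 49.7% in A2780 OlaR. Of 14 other genes with TOP mRNAs, mostly translation factors, 4 were higher and 8 lower in C13* shCEBPB (28.6% and 57.1%, median -0.24), and 9 higher and 3 lower in A2780 OlaR (64.3% and 21.4%, median 0.40). EEF1A1, the factor that brings aminoacyl-tRNA to the ribosome, fell by 1.06 ± 0.0405 after knockdown, from 3446 ± 79.0 to 1653 ± 94.7 FPKM, and TPT1 by 1.16 ± 0.0472. EEF1D and TPT1 rose 1.75 ± 0.0624 and 1.04 ± 0.0477 in A2780 OlaR, where NAP1L1 fell by 1.40 ± 0.0839. Among 35 ribosome assembly genes, 14 were higher and 8 lower after knockdown (40% and 22.9%), led by TSR1 (1.21 ± 0.0424) and EBNA1BP2 (1.18 ± 0.0404), and 19 higher and 13 lower among 34 tested in A2780 OlaR (55.9% and 38.2%), led by TCOF1 (1.48 ± 0.0494) upward and EBNA1BP2 (-1.47 ± 0.0408) downward. RNA polymerase I genes, which serve ribosomal RNA synthesis, were 5 higher and 7 lower of 16 after knockdown (31.2% and 43.8%), with POLR1D at -1.08 and UBTF at 0.67, and 12 higher and 2 lower in A2780 OlaR (75% and 12.5%), with POLR1E at 1.48. The 77 tested mitochondrial ribosomal protein genes were 38 higher and 23 lower after knockdown (49.4% and 29.9%, median 0.10), and 41 higher and 21 lower in A2780 OlaR (53.2% and 27.3%, median 0.21).

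MYC, a transcription factor that drives many ribosome genes, was 34.1 ± 1.15 FPKM in A2780 and 141 ± 6.11 in A2780 OlaR, a rise of 2.02 ± 0.0323 on the log2 scale, and 129 ± 2.79 and 149 ± 8.57 in C13* shCON and C13* shCEBPB. EIF4EBP1, the inhibitor of cap-dependent translation that mTOR releases, was highest in A2780 at 312 ± 25.1 FPKM, against 100.4 ± 17.9 in A2780 OlaR, and rose 0.61 ± 0.113 after knockdown, from 95.6 ± 12.3 to 147 ± 26.1, but by 0.22 within libraries 1 to 3, where it did not pass. LARP1, which binds TOP mRNAs, stayed between group means of 66.9 and 71.2 FPKM with fold changes of -0.07 ± 0.046 and 0.03 ± 0.0244, neither passing. MTOR rose 0.61 ± 0.055 after knockdown and gave -0.0037 ± 0.0301 in A2780 OlaR, not passing.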

How the data were processed

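Libraries from 31 samples, which the supplementary methods say were made with an mRNA-seq kit, were analysed. The submitters' processing notes name FastQC, TopHat, edgeR and the hg38 build, and the methods give paired-end reads mapped by TopHat and counted with HTSeq. The authors deposited FPKM per gene in 1 table of 19225 entries, of which 4 that share a symbol were left out. The tool that made the FPKM values is not given in the sources used here. The supplementary methods give only a minimum yield of sequence per sample, and FPKM is not a count, so the exact depth of each library is unknown. Relative depth, read from the steps between the low values of 179 genes, ranged from 0.888 to 1.23 among libraries. Read counts were not analysed here, so a count test was not run. Values were transformed to log2(FPKM + 1), so fold changes of low genes are understated, and tested with limma 3.58.1 (R 4.3.3; empirical Bayes with trend, two-sided). Each comparison used its own 2 groups and only genes that reached an FPKM of 1 in a number of libraries equal to the size of its smaller group, with Benjamini-Hochberg adjustment over all genes tested and a threshold of 0.05. The fit was tested on simulated data in which genes varied independently and only a small part of them was changed. In these data most genes were called and libraries 1 to 3 stood apart in some groups, so that test does not give the error rate here. Tables were summarised with pandas 2.3.3 (Python 3.11.15). Positions, exonic lengths and pseudogene names came from GENCODE 44, which matched 18278 genes (95.1%), and start sequences from RefSeq (GRCh38.p14).

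The members and the lists of related genes were chosen with earlier results of these data known. The text names the P-stalk, 5S particle, restricted paralogs and single members of known function, the 5 members furthest in each direction in each comparison, the 3 highest and lowest, the other ribosome genes, MYC, LARP1, EIF4EBP1 and up to 2 genes in each direction from each related list; further members were named after their values were seen. Replicate numbers did not pair the samples: same-numbered libraries had correlations over 0.1 in 2 of 7 pairs and in 1 of 8 pairs. Alternatives covered the pseudocount, the filter, scaling, GC content and length, a replicate block, subsets of libraries and leaving out each library. A few genes are not reported here by name, and they stay in the counts, medians and shares.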

Additional observations from a re-analysis of the deposited data

Results flagged for a closer look

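In 9 of 176 groups of libraries examined, over 45 named genes, the highest or lowest library stood far from the others by Dixon's criterion, near the 5% that chance gives. In C13* shCON replicate 6, RPLP0 was 1849 FPKM (others 1740 to 1784) and RPL10 was 203 (others 228 to 238), and in replicate 7 LARP1 was 65.4 (others 70.7 to 73.4). A2780 OlaR replicate 8 had RACK1 at 1530 FPKM, with the others at 1636 to 1722. A2780 replicate 8 accounted for the other 5: RPS27A at 859 FPKM (others 680.0 to 756), RPL22L1 at 113 (others 73.0 to 87.8), RPL26L1 at 94.5 (others 59.8 to 74.6), RPL7L1 at 45.3 (others 39.2 to 41.7) and EIF4EBP1 at 256 (others 298 to 328). Without A2780 replicate 8 or any other single library, the number of ribosomal protein DEGs in A2780 OlaR stayed between 61 and 66.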

How the results depend on the processing

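Values below are log2 fold changes, counts of ribosomal protein DEGs or shares, and the cause of each change was not tested. Shares of all genes called under these settings are not given, so the counts describe the members only. In the knockdown comparison the DEGs that were higher numbered 23 after GC and length correction, 22 with that correction and the replicate block, 27 after quantile normalization, 9 in libraries 1 to 3 and 27 in libraries 4 to 8, and the members' median was -0.034, -0.051, -0.031 and -0.27 in the first 4 of these. In the resistance comparison quantile normalization gave 33 higher and 32 lower (median -0.012), median ratio scaling 9 lower (median 0.42), libraries 1 to 3 22 lower (median 0.25), libraries 4 to 8 a median of 0.39 and a common sum of FPKM a median of 0.27. GC and length correction moved the share of FPKM to 18.9% in C13* shCON and 18.0% in C13* shCEBPB, and leaving out the 100 highest other genes gave 23.2% in C13* shCON, 19.8% in C13* shCEBPB, 18.0% in A2780 and 23.6% in A2780 OlaR. The pseudocount, the filter on low FPKM and 1 fit of all 4 groups left these counts within 1.5 times and both medians in their direction.

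Signs turned in the knockdown comparison under GC and length correction for RPL11 (0.042), RPL7A (0.10), RPS27 (0.14), RPL26L1 (0.033), RPL7L1 (0.019), RPS6KB1 (0.077) and MRPL16 (0.14), with 0.029, 0.085, 0.18, 0.039, 0.019, 0.081 and 0.14 under that correction with the block, where RPL35 was -0.0042. In the resistance comparison both gave -0.00041 for RPL39L and 0.022 for RPS27A. Quantile normalization turned RPLP0 (0.15), RPL39L (-0.075), RPL11 (0.12), RPL7A (0.18), RPS27 (0.15) and RRN3 (-0.0022) after knockdown, and RPL3 (-0.051), RPL5 (-0.33), RPS4X (-0.17) and MTOR (0.12) in resistance. A common sum of FPKM turned RPL39L (-0.0075), RPL5 (-0.0025), LARP1 (-0.042) and EEF1A1 (-0.036) in resistance, and a common sum over the other genes turned RPL39L (-0.0082), RPS2 (-0.030) and RRN3 (-0.0050) after knockdown and MTOR (1.3e-05) in resistance. Median ratio scaling turned RPLP2 (0.053), RPS27A (0.041) and MTOR (0.079) in resistance, and EEF1D (0.0041) and MRPL16 (0.028) after knockdown.

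Libraries 1 to 3 turned RPLP1 (-0.034), RPL39L (-0.34), RPSA (-0.048), RPS3 (-0.28), RPS27 (0.43), RPL35 (-0.24), RPS2 (-0.26), RPS10 (-0.50), RPL7L1 (0.11) and MRPL16 (0.048) after knockdown, and RPL39L (-0.34), RPS27A (0.022), RPL22 (-0.055), RPS2 (-0.053) and CEBPB (-0.055) in resistance. Libraries 4 to 8 turned RRN3 (-0.10) and EEF1D (0.12) after knockdown and RPLP2 (0.14) in resistance.

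The replicate block gave 53 DEGs after knockdown (13 higher, 40 lower) and 61 in resistance (48 higher, 13 lower), and 50 after knockdown when the numbers in the table's own library names were used. It turned RPS2 to -0.017, or -0.0048 with those numbers, and RPL5 lost its call in both comparisons. The numbers did not pair the libraries.

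Leaving out 1 library at a time gave 52 to 59 DEGs after knockdown (12 to 18 higher, 40 to 42 lower, median -0.19 to -0.16) and 61 to 66 in resistance (48 to 51 higher, 13 to 15 lower, median 0.32 to 0.36). The shares ranged from 19.5% to 19.6% in C13* shCON, 16.9% to 17.1% in C13* shCEBPB, 15.5% to 15.6% in A2780 and 19.6% to 19.8% in A2780 OlaR. Signs turned for RPL39L (-0.030 to 0.076), RPS2 (-0.038 to 0.046), RRN3 (-0.0083 to 0.052), EEF1D (-0.067 to 0.0029) and MRPL16 (-0.037 to 0.0066) after knockdown and for MTOR (-0.012 to 0.0057) in resistance. The difference between the comparisons passed for 21 to 23 of the 30 members singled out. With FPKM alone, no counting error can be given for any level.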
